A study of Mus musculus with 30 samples.

Results

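The genes described here were 9 genes of bile acid synthesis and transport in mouse liver. They were found by gene symbol among the 54429 rows of a time-course table and by Ensembl identifier among the 55471 rows of a genotype table, and all 9 had a row in both. The time course held livers of male C57BL/6J mice at 2, 6, and 12 months of age and at zeitgeber times (ZT, hours after lights on) 1, 5, 9, 13, 17, and 21, with 1 library for each age and time (18 libraries). The genotype experiment held livers of male mice lacking *Egr-1* in liver (KO), made by crossing *Alb*-Cre mice with mice whose *Egr-1* alleles are both floxed, and of littermate controls (WT), at the same 3 ages and at a high (H) and a low (L) point of Egr-1 protein in the day, again with 1 library each (12 libraries, 6 pairs). *Alb*-Cre acts in hepatocytes, and liver cells without Cre keep the floxed alleles. By the study's methods, the KO lines (strain 129) were crossed back to C57BL/6J. The study's methods place H and L at ZT13 and ZT17 in mice of 2 months, ZT9 and ZT21 in those of 6 months, and ZT5 and ZT21 in those of 12 months. All mice had chow at all times under 12 h of light and 12 h of dark. The study's figure legends give several mice per group, but the sources used here do not say whether a library held RNA of 1 mouse or of a pool, and with 1 library for each age, time, and genotype the spread between mice could not be estimated.

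Total counts ranged from 13375377 to 16557378 per library in the time course and from 13747706 to 21748956 in the genotype experiment, where the H libraries (18764485 or more) were all deeper than the L libraries (16633981 or fewer). The lowest count of any of the 9 genes in any library was 252, and all 9 passed the filter on low counts in every test. Values are CPM, the usual read counts relative to library size, scaled by TMM factors (trimmed mean of M values, edgeR). Levels of different genes are compared only as FPKM, which here are counts relative to the unscaled library total and per kilobase of exon, without TMM factors. The 6-month ZT5 library stood apart, with a median Spearman correlation of 0.9497 with the other libraries of the time course, where the others had 0.9628 or more. *Dbp*, a clock output gene, had 3.35 CPM in that library, compared with 67.6 CPM at ZT5 of 2 months and 22.9 CPM at ZT5 of 12 months. In all 6 libraries of 6 months, the summed CPM of 6 acute-phase genes (*Saa1*, *Saa2*, *Orm1*, *Orm2*, *Lcn2*, and *Hp*) was 16644 to 62034, compared with 2561 to 3337 at 2 months and 2115 to 5230 at 12 months. The labels of the genotype experiment were checked with *Egr1* RNA, which was lower in the library labelled KO in 4 of 6 pairs. It was 7.37 CPM in the library labelled KO and 1.45 CPM in the library labelled WT at 2 months L, and 6.11 and 5.86 CPM at 12 months H. WT and KO therefore stand below for the labels of the libraries. The 6 hepatocyte markers were all detected in every group, and *Fgf15* and *Fabp6*, which mark ileum, had 0 counts in all libraries.

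Bile acids are made from cholesterol in hepatocytes. In the classic pathway, Cyp7a1 catalyses the first and rate-limiting step, and Cyp8b1 adds the hydroxyl group that distinguishes cholic acid from the muricholic and chenodeoxycholic acids. In the alternative pathway, Cyp27a1 oxidizes the side chain of cholesterol in mitochondria, and Cyp7b1 then hydroxylates the oxysterols formed. Slc10a1 (NTCP) takes conjugated bile acids up from the blood, Abcb11 (BSEP) pumps bile salts into the canaliculus, and Abcb4 (MDR2) moves phosphatidylcholine into bile. Nr1h4 (FXR) is the nuclear receptor that senses bile acids, and Nr0b2 (SHP), one of its targets, is a corepressor that lowers transcription of *Cyp7a1* and *Cyp8b1*. Synthesis and transport of bile acids follow the daily cycle of feeding, and *Cyp7a1* is a known output of the liver clock. In livers of mice, *Cyp7b1* is known to be higher in males than in females.

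The 9 genes lie on 8 chromosomes of GRCm38. Over the 18 libraries of the time course, the order of the median levels in FPKM was *Slc10a1* (207), *Cyp7b1* (140.2), *Cyp27a1* (136), *Nr1h4* (67.6), *Abcb11* (61.4), *Cyp8b1* (49.6), *Nr0b2* (22.3), *Cyp7a1* (19.9), and *Abcb4* (10.5). Between neighbours in that order, only *Cyp27a1* was above *Nr1h4* in all 18 libraries, and *Cyp7b1* was above *Cyp27a1* in 10 of 18 and *Nr1h4* above *Abcb11* in 11 of 18. In the genotype experiment, the order of *Cyp7b1* and *Cyp27a1* was turned, with *Cyp27a1* above *Cyp7b1* in 12 of 12 libraries, and *Cyp8b1* was above *Abcb11* in 12 of 12. The FPKM values rest on the summed exon length of each gene in GENCODE M21. Exons of *Abcb11* overlap those of *Gm13613* and *Gm13614* on the opposite strand. The strand setting of the counting is not given in the sources used here, so that how reads in the overlap were counted is not known.

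**Figure D1:**
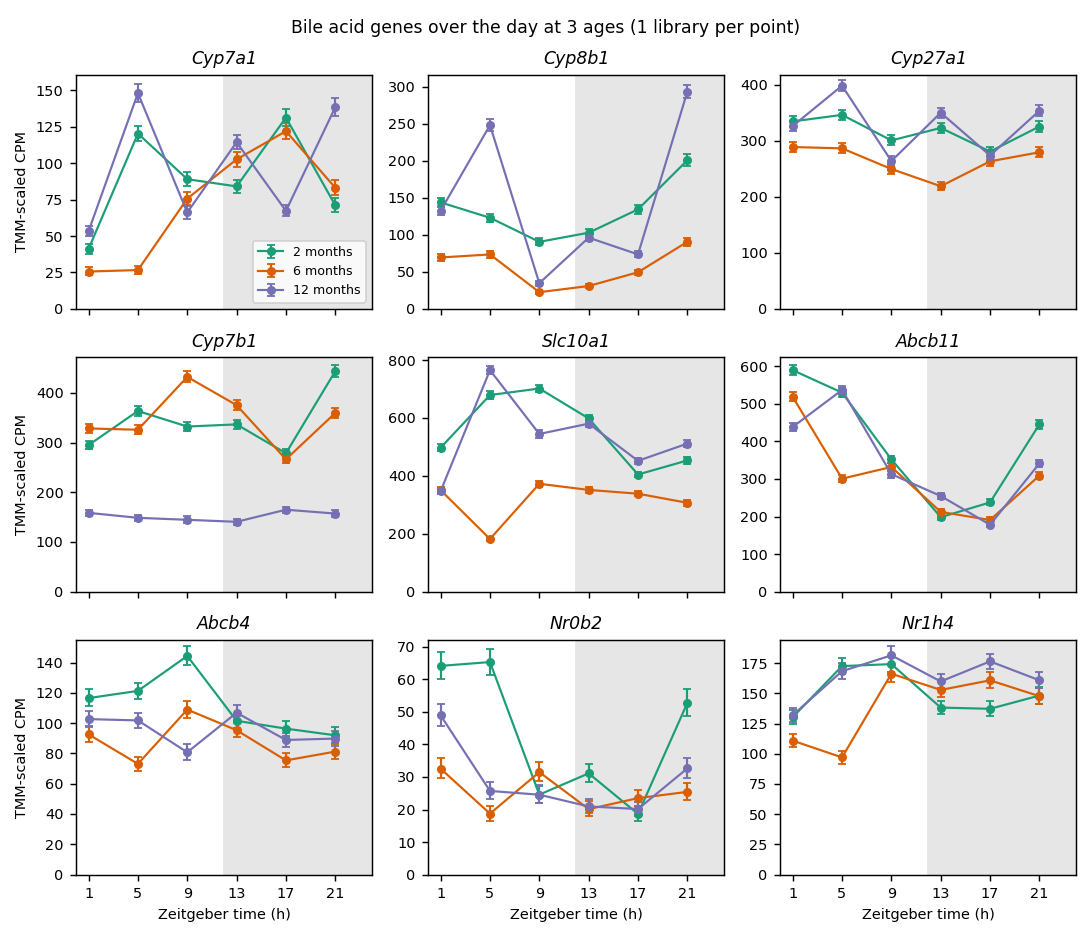
TMM-scaled CPM (vertical axis, from 0) against zeitgeber time in hours (horizontal axis) for the 9 genes at 2, 6, and 12 months, with 1 library per point, exact Poisson 95% intervals that cover counting error only, and the dark phase shaded. *Cyp7b1* lay between 141 and 165 CPM in the 12-month libraries and at 266 CPM or more in all libraries of the other ages.

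The first question was whether the level over the whole day differed between ages. At 6 months, the genes of the list were lower or did not differ detectably from 2 months. Of the 9 genes, 4 were called, all lower at 6 months (quasi-likelihood F-test of edgeR with ZT in the model, Benjamini-Hochberg adjusted p under 0.05 over 13948 genes). Of all genes tested, 13.6% were called and 6.73% were called lower. The 4 genes were *Cyp8b1*, *Slc10a1*, *Abcb4*, and *Nr0b2*, which belong to classic synthesis, uptake, export, and control. The median log2 fold change of the 9 genes was -0.35, compared with 0.0052 over all genes tested. The 6 time points of an age stand in for replicates here. The p-values set the difference between ages against the spread between libraries that age and ZT left.

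Of the classic pathway, *Cyp8b1* (ENSMUSG00000050445, chromosome 9, 121914356 to 121916305, minus strand) had 90.6 CPM in its lowest library, a median of 129, and 201 in its highest at 2 months, and 22.5, 59.4, and 90.6 CPM at 6 months. It was lower at 6 months at 6 of 6 time points, and the groups met only at the lowest value of 2 months and the highest of 6 months. The difference was 2.63-fold (log2 fold change -1.39, standard error 0.22, adjusted p = 0.000788, edgeR). *Cyp7a1* (ENSMUSG00000028240, chromosome 4, 6265612 to 6275633, minus strand) ranged from 41.2 to 131 CPM with a median of 86.5 at 2 months, and from 25.6 to 122 CPM with a median of 79.4 at 6 months. Its lowest libraries were those of ZT1 and ZT5 at 6 months, with 25.6 and 26.6 CPM. The log2 fold change of -0.35 had a 95% interval from -0.97 to 0.27 (adjusted p = 0.48, edgeR), so that a change of a size within these bounds remains possible.

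Of the alternative pathway, *Cyp27a1* (ENSMUSG00000026170, chromosome 1, 74713574 to 74737892, plus strand) was lower at 6 months at 6 of 6 time points, with a lowest, median, and highest value of 281, 324, and 346 CPM at 2 months and of 219, 271, and 289 CPM at 6 months. The log2 fold change was -0.27, with a standard error of 0.09, and the adjusted p of 0.0591 (edgeR) missed the threshold, while DESeq2 gave 0.0173. *Cyp7b1* (ENSMUSG00000039519, chromosome 3, 18071950 to 18243338, minus strand) had a log2 fold change of 0.03 (95% interval -0.21 to 0.27), with 3 time points higher and 3 lower.

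*Slc10a1* (ENSMUSG00000021135, chromosome 12, 80953183 to 80968705, minus strand), the uptake carrier, had 405 CPM in its lowest library, a median of 548, and 702 in its highest at 2 months, and 182, 345, and 373 CPM at 6 months. The groups did not overlap, as in 4.77% of the 12471 genes whose mean reached 1 CPM. The level was 1.71-fold lower at 6 months (log2 fold change -0.77, standard error 0.19, adjusted p = 0.0116, edgeR), and it stayed called without the 6-month ZT5 library, where it was lowest (log2 fold change -0.58, adjusted p = 0.00597, edgeR).

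Of the canalicular genes, *Abcb4* (ENSMUSG00000042476, chromosome 5, 8893717 to 8959231, plus strand) was lower at 6 months at 6 of 6 time points, with 92.0, 109, and 144 CPM at 2 months and 73.1, 86.9, and 109 CPM at 6 months as lowest, median, and highest values. The change was small, 1.27-fold (log2 fold change -0.35, standard error 0.11, adjusted p = 0.04, edgeR). *Abcb11* (ENSMUSG00000027048, chromosome 2, 69238282 to 69342616, minus strand) was not called, with a log2 fold change of -0.30 (95% interval -0.57 to -0.03, adjusted p = 0.14, edgeR) and lower values at 5 of 6 time points.

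Of the nuclear receptors, *Nr0b2* (ENSMUSG00000037583, chromosome 4, 133553376 to 133556536, plus strand) ranged from 18.6 to 65.3 CPM with a median of 41.9 at 2 months and from 18.7 to 32.5 CPM with a median of 24.5 at 6 months. It lay at 52.8 CPM or more in the 2-month libraries of ZT21, ZT1, and ZT5, above all libraries of 6 months, and the groups overlapped at the other times. The level was 1.57-fold lower at 6 months (log2 fold change -0.65, standard error 0.21, adjusted p = 0.0485, edgeR). *Nr1h4* (ENSMUSG00000047638, chromosome 10, 89454234 to 89533585, minus strand) had a log2 fold change of -0.12 (95% interval -0.35 to 0.11). Without the 6-month ZT5 library, *Abcb4* and *Nr0b2* were no longer called (adjusted p = 0.11 and 0.138, edgeR). *Cyp8b1* stayed called (adjusted p = 0.00164, edgeR) but was lost without ZT in the model (adjusted p = 0.065, edgeR), where *Slc10a1* alone was called.

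The acute-phase genes given above moved with the 6-month group in all 6 libraries, and age and the acute-phase level cannot be told apart in these 18 libraries. The summed CPM of the 6 hepatocyte markers was 49149 to 101539 at 6 months, 84556 to 99132 at 2 months, and 91369 to 128420 at 12 months. The summed CPM of the 6 cholangiocyte markers was 48.5 to 112.6 at 6 months, 22.9 to 37.6 at 2 months, and 33.6 to 49.0 at 12 months, with all 6 detected in each group and *Cftr* or *Epcam* under 0.5 CPM. The sums of 5 Kupffer cell markers and of 4 endothelial markers, all detected, had medians of 447 and 232 CPM at 6 months, 347 and 179 CPM at 2 months, and 290 and 176 CPM at 12 months (the endothelial median second in each), and for each list 5 of 6 libraries of 6 months lay above all of 2 months. The part of these markers in the results was not tested. In bulk RNA, fewer cells of a type and less RNA per cell cannot be told apart.

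**Figure D2:**
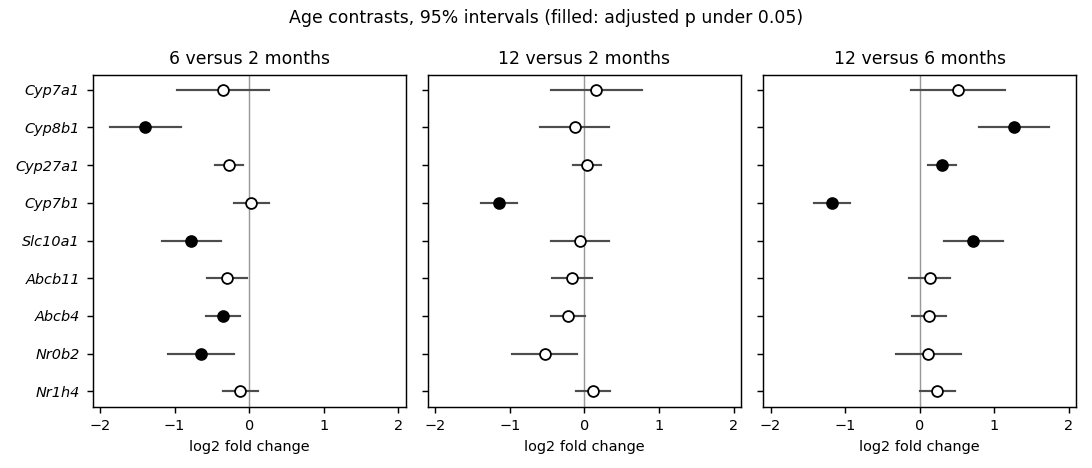
Log2 fold changes (horizontal axis) of the 9 genes (vertical axis) for the 3 age contrasts, with 95% intervals from the edgeR fit, and filled points where the adjusted p was under 0.05. *Cyp7b1* is at -1.15 and -1.18 in the 2 contrasts with 12 months, and *Cyp8b1* is at -1.39 and 1.26 in the 2 contrasts with 6 months.

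At 12 months, the gene that stood apart from 2 months was *Cyp7b1*, the oxysterol hydroxylase of the alternative pathway. Of the 9 genes, it was the only one called, and it was lower (edgeR, as above). Of all genes tested, 11.7% were called and 5.18% were called lower in that contrast. The median log2 fold change of the 9 genes was -0.13, and that of all genes was 0.0016. *Cyp7b1* had 278 CPM in its lowest library, a median of 334, and 443 in its highest at 2 months, 266, 344, and 432 CPM at 6 months, and 141, 153, and 165 CPM at 12 months. The 12-month group did not overlap either of the other groups, as in 4.23% of genes for 12 and 2 months and 4.62% of genes for 12 and 6 months. The level at 12 months was 2.21-fold lower than at 2 months (log2 fold change -1.15, standard error 0.11, adjusted p = 7.81e-06, edgeR) and 2.26-fold lower than at 6 months (log2 fold change -1.18, standard error 0.11, adjusted p = 8.3e-06, edgeR). Within the 12-month group, the highest library was 1.17 times the lowest, compared with 1.59 times at 2 months and 1.62 times at 6 months. The summed CPM of 4 stellate cell markers was 324 to 462 at 12 months and 264 to 316 at 2 months, with all 4 detected, and its part in this result was not tested.

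*Cyp8b1* and *Slc10a1*, which were lower at 6 than at 2 months, were higher again at 12 months. Between 12 and 6 months, 4 of 9 genes were called (16.1% of all genes), of which *Cyp8b1*, *Slc10a1*, and *Cyp27a1* were higher at 12 months (8.57% of all genes were called higher) and *Cyp7b1* was lower (7.58% were called lower). The median log2 fold change of the 9 genes was 0.24, and that of all genes was -0.0039. *Cyp8b1* had 34.7 CPM in its lowest library, a median of 114, and 293 in its highest at 12 months, and was higher than at 6 months at 6 of 6 time points (log2 fold change 1.26, standard error 0.22, adjusted p = 0.00135, edgeR). *Slc10a1* had 347, 528, and 765 CPM at 12 months, and was higher than at 6 months at 5 of 6 time points (log2 fold change 0.72, standard error 0.19, adjusted p = 0.0159, edgeR). The values of *Cyp27a1* were 264, 338, and 398 CPM at 12 months, and were higher than at 6 months at 6 of 6 time points (log2 fold change 0.30, standard error 0.09, adjusted p = 0.0318, edgeR). Without the 6-month ZT5 library, *Cyp27a1* was no longer called (adjusted p = 0.0712, edgeR), and *Cyp8b1* and *Slc10a1* were (adjusted p = 0.00367 and 0.0122, edgeR). The 3 contrasts share their groups, so that a level at 6 months enters 2 of them.

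Against 2 months, the 95% intervals at 12 months were -0.60 to 0.33 for *Cyp8b1*, -0.45 to 0.33 for *Slc10a1*, -0.16 to 0.22 for *Cyp27a1*, and -0.45 to 0.77 for *Cyp7a1* on the log2 scale. *Nr0b2* was lower at 12 than at 2 months at 5 of 6 time points, with 20.2, 25.1, and 48.9 CPM as lowest, median, and highest values at 12 months, but was not called (log2 fold change -0.54, 95% interval -0.97 to -0.10, adjusted p = 0.102, edgeR). *Nr1h4* was called in none of the 3 contrasts, with log2 fold changes from -0.12 to 0.24.

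The second question was which of the genes followed a 24-h rhythm. A cosine of 1 phase and 1 amplitude for the 3 ages was called in 3 of the 9 genes, *Abcb11*, *Cyp8b1*, and *Nr0b2* (edgeR F-test of cosine and sine over 18 libraries, adjusted over 13733 genes, of which 15.8% were called). The fitted peaks of these genes lay within a few hours around lights on, at ZT2.73 for *Abcb11*, ZT23.4 for *Cyp8b1*, and ZT1.62 for *Nr0b2*. Of the genes not called, *Cyp7a1* had the largest fitted swing, with a peak at ZT14.4 and a peak 1.80 times the trough (adjusted p = 0.293, edgeR). It was called when ZT5 was left out at the 3 ages (adjusted p = 0.0202, edgeR).

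The promoters of the 3 rhythmic genes are shown because these were the genes called for a shared 24-h rhythm. The sequences are the 250 bases before the annotated start of transcription in RefSeq (GRCm38.p6), read 5′ to 3′ on the strand of the gene, in lower case, with short motifs in capitals. The positions are chr2:69342617-69342866 (minus strand) for *Abcb11*, chr9:121916306-121916555 (minus strand) for *Cyp8b1*, and chr4:133553126-133553375 (plus strand) for *Nr0b2*.
Abcb11: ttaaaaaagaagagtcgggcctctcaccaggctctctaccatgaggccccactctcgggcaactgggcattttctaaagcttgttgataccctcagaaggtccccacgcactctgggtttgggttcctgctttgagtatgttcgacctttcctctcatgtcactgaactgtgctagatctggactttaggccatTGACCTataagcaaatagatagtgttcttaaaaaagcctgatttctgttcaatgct
Cyp8b1: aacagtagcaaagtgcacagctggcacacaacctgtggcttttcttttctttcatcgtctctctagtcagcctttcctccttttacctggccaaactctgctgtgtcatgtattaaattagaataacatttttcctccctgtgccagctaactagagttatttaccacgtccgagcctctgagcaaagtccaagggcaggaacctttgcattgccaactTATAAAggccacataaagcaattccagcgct
Nr0b2: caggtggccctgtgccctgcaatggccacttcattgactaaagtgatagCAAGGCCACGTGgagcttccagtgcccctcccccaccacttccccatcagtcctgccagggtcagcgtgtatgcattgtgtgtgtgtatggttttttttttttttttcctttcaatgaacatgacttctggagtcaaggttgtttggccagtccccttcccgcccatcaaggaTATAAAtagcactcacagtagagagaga
The capitals in *Abcb11* mark the nuclear receptor motif AGGTCA, read on the opposite strand as TGACCT. Those in *Cyp8b1* mark TATAAA, and those in *Nr0b2* mark CAAGGCCA, a form of the extended motif that NR5A2 (LRH-1) is known to bind, which overlaps the E-box CACGTG by 2 bases, and TATAAA. Searched on both strands, windows of this length held AGGTCA in 14.0%, CAAGGTCA or CAAGGCCA in 3.28%, CACGTG in 6.02%, and TATAAA in 12.4% of all 32851 promoter windows. The EGR element, searched as GCGTGGGCG or GCGGGGGCG, was found in 3.06% of all windows and in 0 of the 7 genes of the list with a window, and the D-box, searched as TTATGTAA, TTACGTAA, or TTATGCAA, in 1.61% of windows and also in 0 of the 7. AGGTCA was also found in windows of *Nr1h4* and *Slc10a1*, and TATAAA in a window of *Slc10a1*, which were not called for the shared rhythm. A match is a description of letters in this window and not a bound site. *Cyp7a1* and *Cyp7b1* had no entry in this table.

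**Figure D3:**
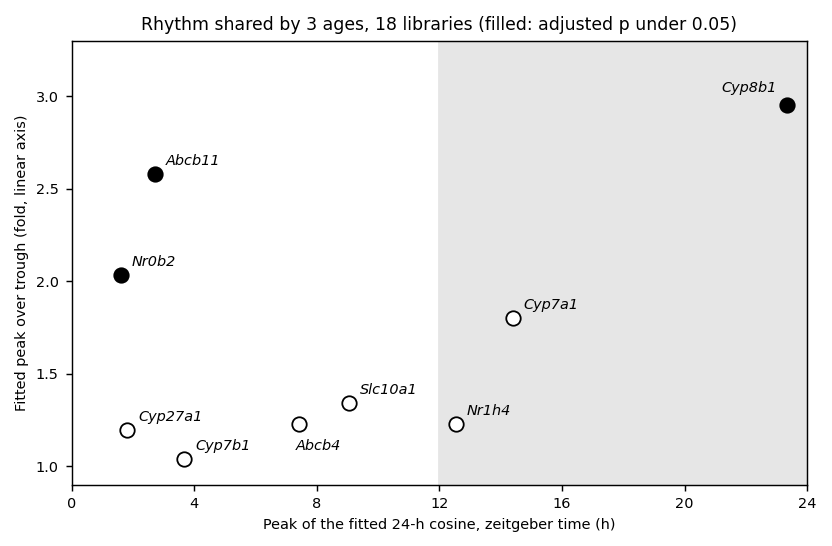
Peak time of the fitted 24-h cosine in zeitgeber hours (horizontal axis, dark phase shaded) and fitted peak over trough as a fold on a linear axis (vertical axis) for the 9 genes over the 18 libraries, with filled points where the adjusted p was under 0.05. *Abcb11*, *Cyp8b1*, and *Nr0b2* are the filled points, at 2.58, 2.95, and 2.04 times.

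*Abcb11*, the bile salt export pump, had the clearest rhythm of the list, with values from 198 to 589 CPM at 2 months, 191 to 518 CPM at 6 months, and 178 to 537 CPM at 12 months. It was highest at ZT1 at 2 and 6 months and at ZT5 at 12 months, and lowest at ZT13 or ZT17 at each age. The fitted peak was 2.58 times the trough (adjusted p = 1.86e-05, edgeR), and its p ranked 78 among 13733 genes. The fitted amplitude in log2 units (from the mean to the peak) and the peak were 0.81 and ZT2.15 at 2 months (adjusted p = 0.00431), 0.58 and ZT2.67 at 6 months (adjusted p = 0.0347), and 0.69 and ZT3.51 at 12 months (adjusted p = 0.017, all edgeR). The calls within an age rested on single libraries: that at 2 months was lost without ZT13 (adjusted p = 0.0921), that at 6 months without ZT1, ZT13, ZT17, or ZT21 (0.283, 0.158, 0.252, and 0.0703), and that at 12 months without ZT13 or ZT17 (0.0597 and 0.228, all edgeR), whereas the shared rhythm stayed called when any time was left out.

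*Cyp8b1* was highest at ZT21 at all 3 ages, with 201, 90.6, and 293 CPM in the order of age, and lowest at ZT9 at all 3 ages, with 90.6, 22.5, and 34.7 CPM. The fitted peak over the 3 ages was 2.95 times the trough (adjusted p = 0.0109, edgeR). Leaving out ZT9 or ZT21 at the 3 ages ended the call (adjusted p = 0.0552 and 0.107, edgeR). In the 12-month group, the libraries did not follow a smooth curve, with 248 CPM at ZT5 next to 34.7 CPM at ZT9.

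*Nr0b2* was highest at ZT5 at 2 months (65.3 CPM, with 64.2 CPM at ZT1) and at ZT1 at 6 months (32.5 CPM) and 12 months (48.9 CPM). The fitted peak was 2.04 times the trough over the 3 ages (adjusted p = 0.0135, edgeR) and 3.11 times at 2 months (adjusted p = 0.0283, edgeR). Leaving out ZT1 or ZT13 at the 3 ages ended the shared call (adjusted p = 0.169 and 0.0607, edgeR), and the call at 2 months was lost without ZT1, ZT17, or ZT21 (adjusted p = 0.0752, 0.157, and 0.084, edgeR). At 6 months, the 6 libraries lay between 18.7 and 32.5 CPM and the fitted peak was 1.202 times the trough (adjusted p = 0.9, edgeR).

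Within single ages, a rhythm was called in 2 of 9 genes at 2 months (*Abcb11* and *Nr0b2*), in 1 at 6 months and in 1 at 12 months (*Abcb11* at both), where 4.72%, 4.62%, and 3.53% of the 14268 genes tested were called. An exact rank test of the JTK kind, which scores the order of the 6 values of an age against 24-h cosines, reached its smallest possible p of 0.0333 (two-sided, unadjusted) in *Cyp8b1* and *Abcb11* at 2 months, in *Cyp27a1* at 6 months, and in 0 of 9 genes at 12 months. The shares of all 12471 genes at that p were 8.72%, 8.3%, and 6.45%.

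*Cyp7a1* was called at no age. It was highest at ZT17 at 2 months (131 CPM) and 6 months (122 CPM) and at ZT5 at 12 months (148 CPM). At 6 months, it had 25.6 and 26.6 CPM at ZT1 and ZT5, lower than in all other libraries of the time course, and the fitted curve peaked at ZT15.2 with 5.32 times the trough (adjusted p = 0.0654, edgeR). Without the 6-month ZT5 library, the adjusted p was 0.276 (edgeR). At 2 months, the values were high at both ZT5 (120.3 CPM) and ZT17 (131 CPM), and at 12 months at both ZT5 (148 CPM) and ZT21 (138 CPM), which a single 24-h cosine cannot follow. *Slc10a1* was highest at ZT9 at 2 and 6 months and at ZT5 at 12 months, and was not called (adjusted p = 0.287, edgeR). Without the 6-month ZT5 library, it was called for a rhythm over the 3 ages (adjusted p = 0.0335, edgeR).

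Whether a rhythm differed between ages was tested directly. For 2 against 6 months, 2 against 12 months, and 6 against 12 months, 0 of 9 genes were called, where 0.105%, 0%, and 0.0841% of all 14268 genes were called (edgeR F-test of the differences of cosine and sine). At an unadjusted p under 0.05, 657 of all genes passed for 2 against 12 months, and 14 passed the adjusted threshold with DESeq2. For 2 against 6 months and 6 against 12 months, edgeR called 15 and 12 genes and DESeq2 called 209 and 224. None of the 9 genes was among the calls of either tool. The smallest unadjusted p values of the list were those of *Cyp7a1* for 6 against 12 months (0.0196), *Nr1h4* for 2 against 6 months (0.0297), and *Nr0b2* for 2 against 6 months (0.0487), with adjusted p of 0.345, 0.406, and 0.473 (edgeR). With 6 libraries per age, a call at 1 age and none at another was therefore not shown to be a difference.

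The third question was whether the 9 genes differed between WT and KO. Over the 6 pairs, 0 of 9 genes were called (edgeR with the pair as a block, adjusted over 14843 genes, of which 1.36% were called). Of the 9 genes, 3 had an unadjusted p under 0.05, as did 2272 of all genes, and DESeq2 called 1, *Slc10a1*. The median log2 fold change of KO over WT was -0.16 for the 9 genes and -0.011 for all genes.

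*Slc10a1* had 450.5, 504, and 576 CPM as lowest, median, and highest values in WT and 350.4, 388, and 543 CPM in KO, with lower values in KO in 5 of 6 pairs. Only the 6-month L pair was higher in KO, with 543 CPM against 512. The log2 fold change was -0.31 (standard error 0.09, 95% interval -0.50 to -0.11, adjusted p = 0.135, edgeR), and the adjusted p was 0.0309 with DESeq2 and 0.0473 without a filter on low counts.

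*Cyp8b1* had 188, 273, and 398 CPM in WT and 157, 216, and 312 CPM in KO, and fewer CPM in KO than WT in 5 of 6 pairs (log2 fold change -0.34, 95% interval -0.59 to -0.09, adjusted p = 0.192, edgeR). The exception was the 6-month H pair, with 213 CPM in KO and 188 in WT. *Nr1h4* was also lower in 5 of 6 pairs, with 133, 141, and 166 CPM in WT and 115, 125, and 136 CPM in KO (log2 fold change -0.19, 95% interval -0.34 to -0.04, adjusted p = 0.204, edgeR). The groups of both genes overlapped.

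*Abcb4* was the only gene of the list with a positive log2 fold change, 0.20 (95% interval -0.02 to 0.42, adjusted p = 0.383, edgeR), and was higher in KO in 5 of 6 pairs. The intervals of the other genes were -0.53 to 0.40 for *Cyp7a1*, -0.27 to 0.06 for *Cyp27a1*, -0.67 to 0.26 for *Cyp7b1*, -0.32 to 0.00 for *Abcb11*, and -0.65 to 0.37 for *Nr0b2*. Changes of a size within these bounds remain possible from the 6 pairs.

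**Figure D4:**
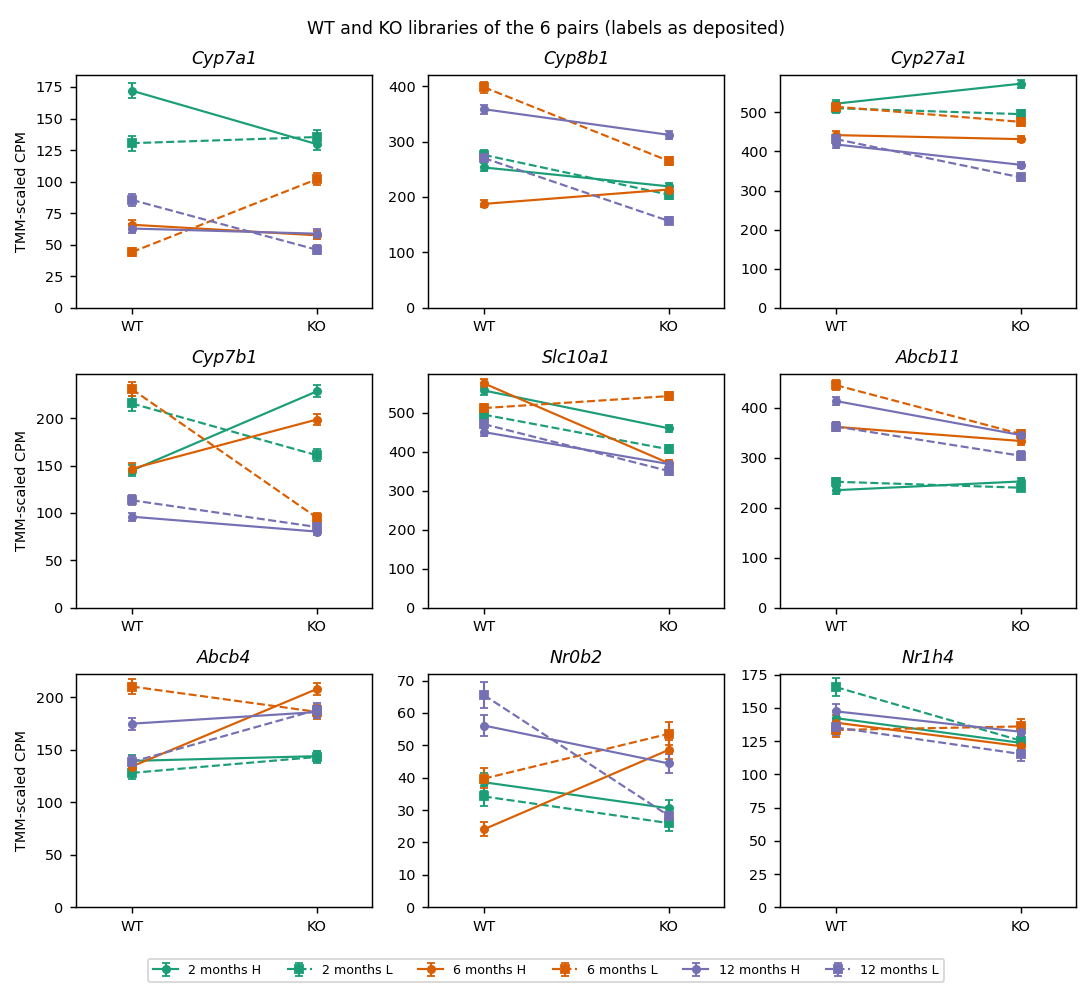
TMM-scaled CPM (vertical axis, from 0) of the 9 genes in the libraries labelled WT and KO (horizontal axis), with a line for each of the 6 pairs of age and time of collection and exact Poisson 95% intervals. The lines of *Cyp7b1* and *Nr0b2* run in both directions, and those of *Slc10a1* fall in 5 of 6 pairs.

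Several genes moved in opposite directions in different pairs. *Cyp7b1* was higher in KO in the H pairs of 2 months (229 against 145 CPM) and 6 months (199 against 147 CPM), and lower in KO in the 3 L pairs, most at 6 months (95.1 against 231 CPM). The difference of the genotype effect between H and L was 0.99 on the log2 scale (95% interval 0.35 to 1.63, unadjusted p = 0.00662, adjusted p = 0.803, edgeR). *Cyp8b1* had a difference of 0.53 (95% interval 0.17 to 0.89, unadjusted p = 0.00907, adjusted p = 0.84, edgeR). *Nr0b2* was higher in KO in both pairs of 6 months, with 48.6 against 24.05 CPM at H and 53.6 against 39.7 CPM at L, and lower in KO in the pairs of 2 and 12 months (unadjusted p = 0.00322 for a difference between ages, adjusted p = 1, edgeR). Of the 9 genes, 0 were called for a difference between ages (0.0135% of all genes called, 478 at an unadjusted p under 0.05) or between H and L (0.00674% called, 753 at an unadjusted p under 0.05).

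The libraries of a pair also differed in other genes. *Dbp*, the clock output gene named above, had 72.9 CPM in the library labelled KO and 24.5 CPM in the library labelled WT at 2 months L, the pair in which *Egr1* was higher in KO. The summed CPM of the hepatocyte markers was 44714 to 57328 in KO and 73369 to 90489 in WT, and these groups did not overlap. The sum of 8 pericentral hepatocyte markers was 6417 to 11411 CPM in KO and 6076 to 7977 CPM in WT, and was higher in KO in 6 of 6 pairs. That of the 4 stellate cell markers was also higher in KO in 6 of 6 pairs (249 to 384 and 212 to 366 CPM), and that of the 5 Kupffer cell markers in 5 of 6 (288 to 420 and 255 to 345 CPM). The sums of periportal hepatocyte and of cholangiocyte markers were higher in KO in 2 of 6 pairs each. Those of endothelial and of lymphocyte markers were higher in KO in 3 of 6 pairs each. Of the acute-phase genes, the sum was 2271 to 5312 in KO and 2777 to 4888 in WT. The part of these differences in the values of the 9 genes was not tested.

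Between times of collection, 0 of 9 genes were called for H against L at 2, 6, or 12 months, where 0.00674%, 0.0943%, and 0.0539% of all genes were called (edgeR, WT and KO of a time standing in for replicates). *Cyp8b1* had the largest differences of the list. At 6 months, where the methods place H at ZT9 and L at ZT21, its log2 fold change was -0.68 (95% interval -1.12 to -0.24, adjusted p = 0.352, edgeR). At 12 months, where they place H at ZT5 and L at ZT21, it was 0.68 (95% interval 0.25 to 1.12, adjusted p = 0.328, edgeR). In the 6-month time course, *Cyp8b1* was also lower at ZT9 than at ZT21, with 22.5 and 90.6 CPM. At 12 months, it had 248 CPM at ZT5 and 293 CPM at ZT21 in the time course, and 358 CPM at H and 270.4 CPM at L in WT.

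Of the collections at different ages, only L of 6 and L of 12 months shared a time of day (ZT21) by the study's methods. *Dbp* had 13.2 CPM in WT and 6.97 CPM in KO at 6 months L, and 4.80 and 6.48 CPM at 12 months L. In the time course, it had 1.34 CPM at ZT21 of 6 months and 3.603 CPM at ZT21 of 12 months. Whether these collections matched in clock time was not tested. Between L of 6 and L of 12 months, 0 of 9 genes were called (0.0135% of all genes called, 1980 at an unadjusted p under 0.05). The 9 log2 fold changes of 12 over 6 months were all negative. *Cyp7b1* had -0.69 (95% interval -1.48 to 0.11, adjusted p = 0.426, edgeR), with 231 CPM in WT and 95.1 CPM in KO at 6 months and 113 CPM in WT and 85.2 CPM in KO at 12 months. *Cyp8b1* had -0.65 and *Slc10a1* had -0.39 in this contrast, and 1.26 and 0.72 in the time course, where all 6 times of day entered. The acute-phase sum was raised at 6 months in the time course and not in the genotype experiment, where it was 5312 or less in all 12 libraries.

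Over all 12 libraries of the genotype experiment, the lower *Cyp7b1* at 12 months was also seen as a description, without a test because H fell at different times of day. The 4 libraries of 12 months had 80.3 to 113 CPM, and 7 of the 8 libraries of 2 and 6 months lay above all of them, with the exception of KO at 6 months L (95.1 CPM). In WT alone, *Cyp7b1* had 96.1 to 113 CPM at 12 months and 145 to 231 CPM at 2 and 6 months. *Cyp27a1* gave the same count, with 334 to 432 CPM in the 4 libraries of 12 months and 7 of the 8 younger libraries above all of them. *Slc10a1* in WT had 450.5 to 471 CPM at 12 months and 495 to 576 CPM at 2 and 6 months. In the time course, *Cyp27a1* and *Slc10a1* were higher at 12 than at 6 months. *Nr0b2* in WT had 56.1 to 65.5 CPM at 12 months and 24.05 to 39.7 CPM at 2 and 6 months, whereas in the time course its median was lower at 12 than at 2 months. The share of all genes whose libraries split by age in these ways was not computed, so that these ranges have no baseline. The experiments differ in line, litter, and sampling, and their CPM were scaled separately.

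**Figure D5:**
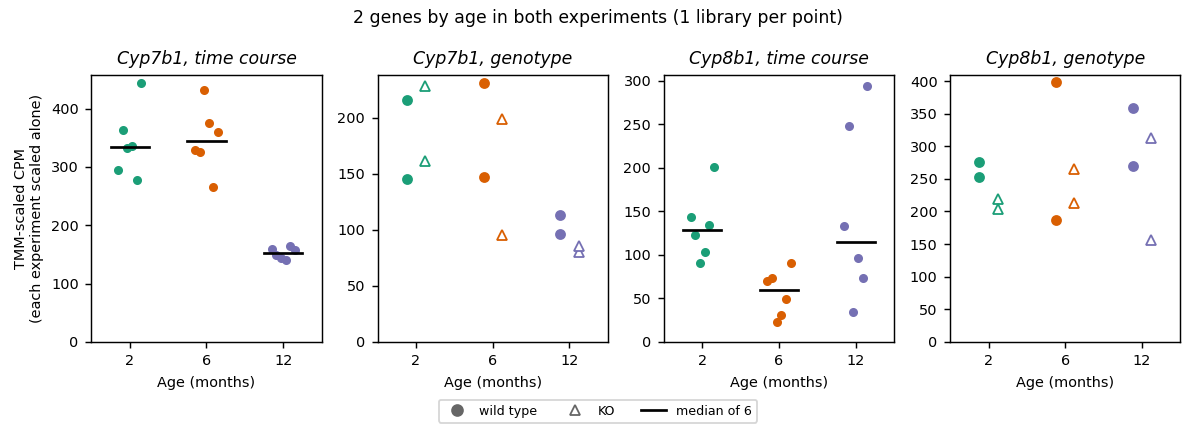
TMM-scaled CPM (vertical axes, from 0) of *Cyp7b1* and *Cyp8b1* by age in months (horizontal axes) in the time course and in the genotype experiment, with 1 library per point, filled circles for wild type, open triangles for KO, and bars at the median of the 6 libraries of an age. *Cyp7b1* is lowest at 12 months in both, with the exception of 1 open triangle at 6 months, and *Cyp8b1* is low at 6 months only in the time course panel, a difference between experiments that was not tested.

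The other genes of the pathway were taken from a list of 40, of which 36 passed the filter in the age contrasts (13 of 15 genes of synthesis and conjugation, 14 of 15 transporters, and 9 of 10 regulators). At 6 against 2 months, 13 of the 36 were called, 11 of them lower (13.6% of all genes called, 6.73% called lower). The largest changes were a rise of *Slc10a2*, the bile acid carrier of cholangiocytes and ileum (log2 fold change 1.58, adjusted p = 1.8e-05, edgeR), and falls of *Akr1d1*, the reductase of the sterol ring (-0.71), *Abcg5*, a subunit of the sterol exporter (-0.67), and the conjugate exporters *Abcc2* (-0.67) and *Abcc3* (-0.62). *Slc10a2* is also 1 of the cholangiocyte markers given above. None of the 9 regulators was called.

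At 12 against 2 months, 9 of the 36 were called, 5 higher and 4 lower (11.7% of all genes called, 5.18% called lower). *Cyp46a1*, a cholesterol 24-hydroxylase, and *Cyp39a1*, an oxysterol hydroxylase, were higher (1.96 and 1.07), as was *Ephx1* (0.77). *Cyp2c70*, which makes muricholic acids in mice, and *Cyp2a12*, a hydroxylase of secondary bile acids, were lower (-1.004 and -0.73). Between 12 and 6 months, 10 of the 36 were called, 7 higher and 3 lower at 12 months. The shares of all genes were 16.1% called, 8.57% called higher, and 7.58% called lower. Changed most were *Cyp46a1* (2.21), *Slco1a4* (1.07), *Slc10a2* (-1.02), *Ephx1* (0.91), and *Abcc3* (0.79). The shared 24-h rhythm was called in 13 of the other genes, where 15.8% of all genes were called. Tested for it were 9 regulators, 13 genes of synthesis and conjugation, and 13 transporters. The sterol exporters *Abcg8* and *Abcg5* had the largest amplitudes, with peaks at ZT8.16 and ZT9.76, followed by *Nr1i3*, *Abcc4*, and *Klb*.

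In KO against WT, 2 of the 36 were called (1.36% of all genes). Both were lower in KO, and both are organic anion carriers of the basolateral membrane. *Slco1a4* fell by 1.15 on the log2 scale (standard error 0.18, adjusted p = 0.0173, edgeR) and *Slco1a1* fell by 0.93 (standard error 0.17, adjusted p = 0.0373, edgeR). Both take up bile acids and other organic anions beside *Slc10a1*.

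Among the 9 genes themselves, the pair with the highest Pearson correlation of log2(CPM + 0.5) over the 18 libraries was *Cyp8b1* with *Cyp27a1* (r = 0.86, and 0.78 within ages). Next was *Cyp7a1* with *Nr1h4* (r = 0.73, 0.70 within ages, and 0.35 over the 12 libraries of the genotype experiment). *Abcb11* had r = 0.72 with *Nr0b2*. Of all 12471 genes, the most alike were *Slc2a2*, the glucose carrier, for *Slc10a1* (r = 0.95), *Lgals9* and *Ptprk* for *Abcb11* (r = 0.94 for both), *Mup7* for *Cyp7b1* (r = 0.94), *Abcc2* for *Abcb4* (r = 0.90), *Mthfd1* for *Cyp8b1* (r = 0.90), *Serpinc1* beside *Cyp8b1* for *Cyp27a1* (r = 0.86), *Gmnn* for *Nr1h4* (r = 0.84), *Gbp6* for *Nr0b2* (r = 0.83), and *Pla2g16* for *Cyp7a1* (r = 0.81). The correlation of *Cyp7b1* with *Mup7* was 0.56 within ages, so that the difference between ages carried part of it, and *Mup7* belongs to a family of near-identical genes whose reads the counting could have split. In the genotype experiment, r over 12 libraries was 0.79 for this pair and 0.22 for *Cyp8b1* with *Cyp27a1*. For *Abcb11*, it was 0.83 with *Lgals9*, 0.75 with *Ptprk*, and 0.49 with *Nr0b2*. It was 0.76 for *Slc10a1* with *Slc2a2*, 0.77 for *Cyp27a1* with *Serpinc1*, and 0.51 for *Cyp8b1* with *Mthfd1*. The lowest were 0.41 for *Abcb4* with *Abcc2*, 0.16 for *Nr0b2* with *Gbp6*, 0.10 for *Nr1h4* with *Gmnn*, and 0.04 for *Cyp7a1* with *Pla2g16*. Among the lowest were also *Cyp8b1* with *Cyp27a1* and *Cyp7a1* with *Nr1h4*. These values describe libraries that share ages and times of day, and no test was made.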

How the data were processed

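RNA of male mouse livers was measured in 18 time-course libraries and 12 genotype libraries. Per the labels and the study's methods, the authors selected polyA RNA, trimmed reads with fastp, aligned them to GRCm38 (mm10) with HISAT2, and deposited whole-number counts per gene from featureCounts, with no normalization. Tool versions, the annotation, and the strand setting of the counting are not given in the sources used here. Members and gene lists were chosen with earlier results of these data known. All 9 members were named in every comparison, together with at most 5 other called bile acid genes with the largest changes, the 3 genes most correlated with each member (of which some are given), and *Egr1* and *Dbp*.

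Counts were scaled with TMM factors, filtered with filterByExpr, and tested by quasi-likelihood F-tests in edgeR 4.0.16 (R 4.3.3, limma 3.58.1) over all genes, with Benjamini-Hochberg adjustment at 0.05. Age was tested with ZT as a block, rhythm with cosine and sine terms of 24 h, and genotype with the pair as a block. With 1 library per age and time, time points or pairs stood in for replicates. The p-values set each difference against the spread between these libraries that the model left. The rank test enumerated the 720 orders of 6 values (Python 3.11.15, scipy 1.17.1). The alternatives were DESeq2 1.42.0, its size factors in edgeR, no filter, no block, leaving out each time or pair, H or L pairs alone, and, for the rank test, other scaling, filter, and phases. One more, without the 6-month ZT5 library, was chosen after seeing the data. Exact Poisson intervals (95%) cover counting error only. Of the identifiers, 53851 of 54429 and 55230 of 55471 matched GENCODE M21, which gave locations and exon lengths, and 7 of 9 members had a RefSeq promoter. The fits were tested on simulated counts with changes of 1.5, 2, and 4-fold, whose spread was fixed in advance and not fitted. These counts held no other effect of age, time, or pair, so that the shares need not hold for the real libraries. For a rhythm at 2 months (peak over trough), 3, 28.4, and 81.8% of the changed genes were called. For 12 against 2 months, the shares were 64.2, 80.6, and 98.5%, and for KO against WT 50.7, 88.1, and 98.5%. Smaller true rhythms at 1 age could thus mostly be missed.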

Additional observations from a re-analysis of the deposited data

Results flagged for a closer look

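One value stood apart from the others of its group. *Slc10a1* had 182 CPM in the 6-month ZT5 library, compared with 307 to 373 CPM in the other 5 libraries of 6 months, a gap of 0.655 of the range of the group (above Dixon's 95% critical value for 6 libraries). Of 45 groups of 6 libraries tested, 1 was marked in this way, and chance marks about 1 group in 20. The same library had the lowest *Abcb4* (73.1 CPM), *Nr0b2* (18.7 CPM), and *Nr1h4* (97.0 CPM) of its age.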

How the results depend on the processing

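Of the age calls, those of *Cyp7b1* (12 against 2 and 12 against 6 months), *Slc10a1* (6 against 2 and 12 against 6 months), and *Cyp8b1* (12 against 6 months) held under all alternatives run, and *Cyp8b1* at 6 against 2 months under all but the fit without the ZT block. At 6 against 2 months, 4 genes were called, 2 without the 6-month ZT5 library, 1 without the ZT block, and 2 to 4 when 1 time was left out. *Abcb4* and *Nr0b2* each lost their call in 6 of 11 alternatives, and *Cyp27a1* at 12 against 6 months in 7 of 11, while *Cyp7a1* was called there without a filter (adjusted p = 0.0233, edgeR). At 12 against 2 months, 2 genes were called without a filter on low counts (*Nr0b2* in addition). For the rhythm at 2, 6, and 12 months, leaving out 1 time gave 1 to 2, 0 to 1, and 0 to 2 genes (*Cyp8b1* in addition at 12 months without ZT5, adjusted p = 0.0312, edgeR), and no filter gave 2 at 6 months (*Cyp7a1* in addition). Without a filter, 1 gene each was called for KO against WT (*Slc10a1*), H against L at 12 months (*Cyp8b1*), 12 against 6 months at L (*Cyp8b1*), and a genotype effect that differed between ages (*Nr0b2*) or between H and L (*Cyp7b1*), and DESeq2 called 1 for KO against WT and 1 for H against L at 12 months. In the rank test, phases at each 2 h gave 4, 2, and 1 genes at 2, 6, and 12 months, where the smallest p was 0.0833, and CPM from library totals gave 3 at 2 months (*Slc10a1* in addition) and 0 at 6 months. The cause of these changes was not tested.

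Over all genes, calls at 6 against 2 months went from 1892 to 1082 without the ZT block, those at 12 against 2 months from 1625 to 986, and those at 12 against 6 months from 2252 to 1429. For KO against WT, 202 calls became 636 without a filter, 430 with DESeq2, 21 without the pair block, 2 in the H pairs, 54 in the L pairs, and 9 without the pairs in which *Egr1* was not lower in the library labelled KO, where 0 of the 9 genes were called. The log2 fold change of KO over WT changed sign in 3 of 13 alternatives for *Cyp7a1* and in 2 of 13 each for *Cyp7b1* and *Nr0b2*. The tests of KO against WT were paired by age and collection, and the labels give no replicate numbers that could pair libraries in another way. The counts of the 9 genes were 252 or more in every library, and with 1 library at each age, time, and genotype the error beyond counting was not measured there.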
